A study of Homo sapiens with 46 samples.

Results

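The 2′,5′-oligoadenylate synthetase (OAS) family was followed through RNA sequencing of human cell lines in which Ku, the Ku70/Ku80 dimer that binds DNA ends, had been removed. The members are OAS1, OAS2, OAS3 and OASL, taken by gene symbol. They are 4 of 61228 genes in the table of the HCT116 colon carcinoma line and 4 of 30160 genes in the table of the HEK293 embryonic kidney line, and all 4 were listed in all 46 libraries.

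In HCT116 clones 1, 7 and 9 the Ku80 protein bears a degron that auxin switches on (Ku80-AID). The auxin indole-3-acetic acid (IAA) was given at 100 µM, with doxycycline at 0.5 µg/mL, for 1, 2, 4 or 6 days, and the control libraries came from DMSO-treated cells at 1 or 2 days. IAA against DMSO therefore mixes both compounds with the loss of Ku80, and the 2-day DMSO libraries are the shared control for 2, 4 and 6 days, so the 4-day and 6-day changes also hold the added time in culture. Each clone gave 1 library per group, from clones 1 and 9 at 1 day and from all 3 clones at the later times. The same clones were treated with a CDK4/6 inhibitor (CDKi), which holds cells before DNA synthesis, alone or together with IAA, for 2 days (clones 1 and 9) or 4 days (all 3). Further Ku80-AID clones, 1, 13 and 15, were MAVS-/-, without the protein through which RIG-I and MDA5 signal, and received DMSO or IAA for 4 days. HCT116 cells with 1 floxed and no other Ku80 allele (Ku86flox/-), with or without the tamoxifen-dependent recombinase CreERT2, received 50 nM 4-hydroxytamoxifen (4OHT) or ethanol for 4 days, in 2 libraries per group. Whether these 2 are separate cultures is not in the labels, so their spread, and the p-values built on it, may be technical only. HEK293 clones Sa11, SB and TI, whose own Ku70 gene was knocked out and replaced by a doxycycline-dependent copy, were compared on 1 µg/mL doxycycline and 8 days after its withdrawal.

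OAS1, OAS2 and OAS3 are cytoplasmic enzymes that bind double-stranded RNA and then join ATP into short 2′,5′-linked oligoadenylates, called 2-5A. 2-5A acts as a second messenger of the antiviral response. OASL has lost the enzyme activity, carries ubiquitin-like repeats at its end and is known to strengthen RIG-I signalling. All 4 genes are classical interferon targets, read through STAT2 and IRF9 at promoter elements with repeated GAAA, and OASL is also known as a direct target of the IRF factors that MAVS activates.

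OAS1, OAS3 and OAS2 lie in this order side by side on chromosome 12 in GRCh38.p14, at chr12:112906962-112933219, chr12:112938474-112973251 and chr12:112978519-113011723. The cluster spans 104762 bases from the start of OAS1 to the end of OAS2. OASL stands apart on the same chromosome at chr12:121017761-121039246, 8006038 bases beyond OAS2. Promoter sequences from RefSeq were matched for 2 of the 4 members, OAS1 and OAS3. They are shown because the GAAA repeats of the interferon-stimulated response element are spelled differently in them. Each line is the 250 bases before the start of the gene on the plus strand of GRCh38.p14, with matches to GAAANNGAAA or GAAANGAAA in capitals.
OAS1, chr12:112906712-112906961: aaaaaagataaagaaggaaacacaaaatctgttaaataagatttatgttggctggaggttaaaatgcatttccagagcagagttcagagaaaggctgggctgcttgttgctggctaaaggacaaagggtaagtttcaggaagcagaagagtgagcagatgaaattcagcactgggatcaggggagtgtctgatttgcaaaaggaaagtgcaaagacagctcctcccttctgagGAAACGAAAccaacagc
OAS3, chr12:112938224-112938473: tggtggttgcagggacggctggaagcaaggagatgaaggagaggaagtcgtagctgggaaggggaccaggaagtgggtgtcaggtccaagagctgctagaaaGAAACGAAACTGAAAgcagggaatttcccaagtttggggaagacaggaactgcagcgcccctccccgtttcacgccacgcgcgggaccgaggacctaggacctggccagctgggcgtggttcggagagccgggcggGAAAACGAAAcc

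All patterns were searched on both strands, in a window longer than the printed one that runs past the start of the gene. The GAAANNGAAA pattern occurred in OAS3 from -143 to -134 and from -12 to -3, counted from the first base of the gene. It was found in 3.57% of 35116 promoters, searched over the same longer window. OAS1 did not hold these letters. It held the shorter GAAANGAAA from -17 to -9, as did OAS3 from -148 to -140, where it overlaps the upstream GAAANNGAAA. This second pattern was searched after the OAS1 sequence had been read, and 3.12% of the promoters held it. The gamma-activated sequence pattern TTCNNNGAA was found in OAS1 from -168 to -160 and in 7.66% of promoters. These matches are letters in a window, not measured sites.

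Libraries held 9527921 to 45747406 estimated counts in the Ku80-AID set, 13046804 to 17609017 in the Ku86flox/- set and 19568398 to 28483236 in HEK293. Values below are counts-per-million (CPM) on normalised library sizes, from the authors' estimated counts, and log2 changes ± standard error (SE) with adjusted p-values come from edgeR's quasi-likelihood test at a threshold of 0.05. XRCC5 mRNA, which encodes Ku80, stood at 257 ± 1.49 CPM (SD, n = 2) in Cre cells on ethanol and at 27.8 ± 4.12 CPM on 4OHT. XRCC6 mRNA, which encodes Ku70, stood at 3006 ± 657 CPM (SD, n = 3) in HEK293 cells on doxycycline and at 454 ± 137 CPM after its withdrawal. In the Ku80-AID clones IAA acts on the protein, so XRCC5 mRNA does not check the labels there. MAVS mRNA stood at 324 ± 14.5 CPM in the 2-day DMSO libraries and at 139 ± 27.4 CPM in the MAVS-/- DMSO libraries. Of 7 colon epithelial markers, 5 had a mean of more than 1 in transcripts-per-million (TPM) in HCT116, with summed levels of 1910 to 4590 TPM. Of 5 blood markers none did, with summed levels of 0.0612 to 3.02 TPM. Of 4 fibroblast markers 1 did, with summed levels of 4.58 to 25 TPM. HEK293 had 1 of the 5 blood and 3 of the 4 fibroblast markers above 1 TPM on average, with summed levels of 2.57 to 5.7 and 7.54 to 33.9 TPM. In HEK293, 3 of 6 markers of that line were above 1 TPM on average, with summed levels of 570 to 736 TPM. The counts do not separate the lines, since 5 of the 7 colon markers were above 1 TPM in HEK293 and 2 of the 6 HEK293 markers in HCT116. The summed levels do, at 185 to 496 TPM for the colon markers in HEK293 and 1.46 to 33.9 TPM for the HEK293 markers in HCT116. The 8 libraries of the 1-day and 2-day CDKi groups stood apart from the others of the same clones: DTX1, the gene next to OAS2, was at 0.485 to 1.41 CPM in each of them and at 0 in the 2-day DMSO, 2-day and 6-day IAA and 4-day CDKi libraries. It was at 0.545 to 1.69 CPM in the MAVS-/- libraries. The labels name no library or sequencing set, so what this split in a low gene marks is not known. These are bulk libraries, in which more mRNA in each cell and more responding cells cannot be told apart.

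Over the IAA time course all 4 members rose. OASL was the only member past the test at 2 days, all 4 were past it at 4 and 6 days, and none at 1 day by edgeR or DESeq2 (0 members at an unadjusted p under 0.05). At 2 days 9.12% of 18877 tested genes were called higher, at 4 days 17.9%, at 6 days 17.8% and at 1 day 0.117%. OAS1 and OAS2 passed the filter on low counts only through the groups in which they were high, so the share of members called is a description. Whether the members differ in timing was not tested, and without the count filter OAS1 was called at 2 days too (2.61, edgeR, adjusted p = 0.000506).

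OAS1 was nearly silent in control cells. It stood at 0.287, 0 and 0.0991 CPM in the 2-day DMSO libraries of clones 1, 7 and 9, which is 4 counts in the 3 libraries together. It stood at 1.69, 0.194 and 0.184 CPM after 2 days of IAA, at 40.9, 8.19 and 11.2 CPM after 4 days and at 48.9, 18.1 and 27.8 CPM after 6 days. Every 4-day and 6-day library lay above every control library, and clone 1 was the highest of the 3 clones at each of these IAA times. The change was 7.34 ± 0.96 at 4 days (edgeR, adjusted p = 1.18e-06) and 7.99 ± 0.95 at 6 days (adjusted p = 2.7e-07), and it was higher in 3 of 3 clones at both times. With so few control counts the size is loosely held. The ratio of summed normalised counts at 4 days was 197, with an exact Poisson interval at 95% of 76.8 to 725 that covers counting error only. The 2-day change of 2.58 ± 1.32, beside 2.25 ± 0.36 for OASL, did not pass with the filter (edgeR, adjusted p = 0.193). Its count ratio was 6.59, with an interval of 2.34 to 25.6. Without clone 1 at 2 days of IAA the change was 0.68 (adjusted p = 0.901).

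OAS2 was also close to 0 in control cells. Its control libraries held 0, 0.29 and 0 CPM, again 4 counts in all. It stood at 0.483, 0.194 and 0.184 CPM after 2 days of IAA, at 1.46, 0.422 and 2.76 CPM after 4 days and at 2.15, 2.02 and 3.91 CPM after 6 days. The 4-day and 6-day libraries did not overlap the controls, although clone 7 at 4 days was close to its own control. The change was 3.70 ± 0.81 at 4 days (edgeR, adjusted p = 0.000864) and 4.51 ± 0.81 at 6 days (adjusted p = 8.68e-05). The count ratio was 12.4 at 4 days, with an interval of 4.64 to 46.7, and 23.0 at 6 days, with an interval of 8.89 to 85.2. The 2-day change of 1.35 ± 0.90 did not pass (edgeR, adjusted p = 0.343), but it became 5.35 (adjusted p = 0.0294) without the clone 7 control, which held all the control counts. That is a fitted value against 0 counts and no bound.

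OAS3 was the only member with a substantial level before IAA. It stood at 70.6, 67.6 and 83.1 CPM in the 2-day DMSO libraries and at 63.1, 62.6 and 66.8 CPM after 2 days of IAA. All 3 IAA libraries were below all 3 controls at 2 days, and the change of -0.20 ± 0.13 did not pass (edgeR, adjusted p = 0.31). At 4 days it stood at 342, 235 and 291 CPM and at 6 days at 437, 362 and 492 CPM, far above every control. The change was 1.97 ± 0.13 at 4 days (adjusted p = 1.3e-11) and 2.55 ± 0.13 at 6 days (adjusted p = 7.89e-14). The 1-day DMSO libraries of clones 1 and 9 held less OAS3, 50.5 and 57.1 CPM. Against them the 2-day IAA value would be 0.25 higher rather than lower on the log2 scale (edgeR, adjusted p = 0.139). The 1-day DMSO libraries are among those that DTX1 sets apart from the 2-day IAA libraries. Time, treatment and whatever the DTX1 split marks thus cannot be told apart in that value.

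OASL passed the test at 2 days of IAA. It stood at 2.39, 1.82 and 1.59 CPM in the 2-day DMSO libraries and at 13.8, 6.0 and 7.61 CPM after 2 days of IAA, with no overlap and with clone 1 highest. It then stood at 59.0, 28.4 and 33.2 CPM after 4 days and at 56.5, 31.9 and 54.4 CPM after 6 days. The change was 2.25 ± 0.36 at 2 days (edgeR, adjusted p = 6.1e-05), 4.38 ± 0.36 at 4 days (adjusted p = 7.34e-10) and 4.62 ± 0.36 at 6 days (adjusted p = 2.68e-10). At 1 day it stood at 4.3 and 3.64 CPM on IAA and at 2.25 and 2.36 CPM on DMSO, higher in both clones. That change of 0.78 ± 0.43 did not pass (adjusted p = 0.795), and with the clone as a replicate block, in a fit of these 4 libraries alone, it did (0.78, adjusted p = 0.033).

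**Figure D1:**
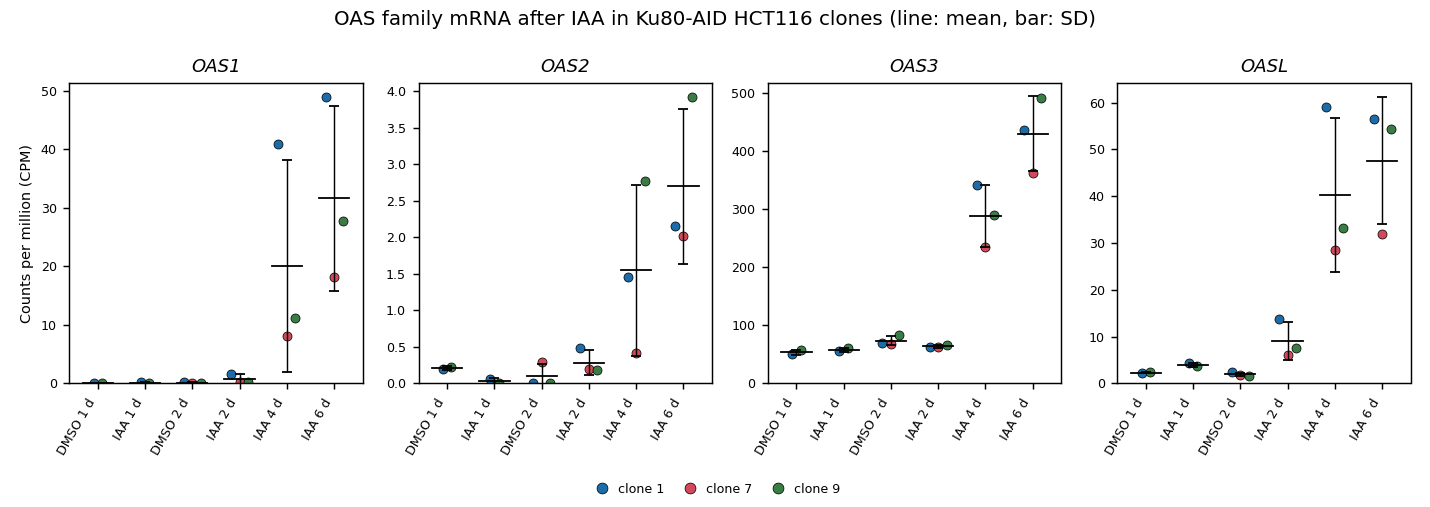
Level of each OAS family member in counts-per-million (vertical axes, linear from 0, a different range for each gene) by treatment and time (horizontal axis, days) in Ku80-AID clones 1, 7 and 9. Points are single libraries, lines are means and bars are SD, cut at 0. OASL lies above its controls in every IAA library. At 1 day, where its change did not pass the test, it stands at 4.3 and 3.64 CPM against 2.25 and 2.36 CPM. OAS3 stays at 62.6 to 66.8 CPM at 2 days of IAA and reaches 235 to 342 CPM at 4 days.

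The step from 2 to 4 days of IAA was tested directly, and all 4 members rose in it, against 4.73% of genes called higher. OAS1 rose by 4.76 ± 0.72 (edgeR, adjusted p = 0.00011), OAS3 by 2.17 ± 0.13 (adjusted p = 1.01e-11) and OASL by 2.13 ± 0.30 (adjusted p = 5.66e-05). OAS2 rose by 2.35 ± 0.70 (adjusted p = 0.0361), its 2-day and 4-day libraries overlapped, and this call was lost without clone 7 or clone 9 at 2 days (adjusted p = 0.153 and 0.141) or clone 9 at 4 days (adjusted p = 0.157). From 4 to 6 days OAS3 alone was called, against 5.36% of genes called higher. It rose by 0.58 ± 0.12 (adjusted p = 0.00375) with no overlap between the 3 libraries of each day. In a fit of these 6 libraries alone this was 0.56 (adjusted p = 0.254), and with the clone as a replicate block 0.57 (adjusted p = 0.404). The 4-day to 6-day values of the others were 0.64 ± 0.54 for OAS1, 0.81 ± 0.61 for OAS2 and 0.24 ± 0.28 for OASL. Without clone 1 at 4 days, where it was highest, the OAS1 value became 1.73 (adjusted p = 0.0361).

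Values on IAA are given for 3 other genes around 2-5A, PDE12, ABCE1 and AKAP7. PDE12, a phosphodiesterase that degrades 2-5A, stood at 86.1 ± 7.67 CPM (SD, n = 3) in the 2-day controls and fell by 0.38 at 2 days (SE 0.11, edgeR, adjusted p = 0.0122) and by 0.64 at 4 days (SE 0.11, adjusted p = 3.82e-05). Its 6-day value was -0.26 ± 0.11 (adjusted p = 0.0629). ABCE1, a ribosome-recycling factor, fell by 0.65 at 2 days (SE 0.18, adjusted p = 0.00982) and by 0.53 at 6 days (SE 0.18, adjusted p = 0.0194), and its 4-day value was -0.44 ± 0.18 (adjusted p = 0.056). AKAP7, which carries another 2-5A phosphodiesterase domain, had values of -0.06 ± 0.28 at 2 days, 0.25 ± 0.28 at 4 days and -0.33 ± 0.28 at 6 days, none past the test.

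Genes upstream of and around the OAS family were described by lists. Of 15 sensors of double-stranded RNA and other nucleic acids, 13 were tested at 4 days of IAA, and 7 rose and 2 fell, where 17.9% of all genes were called higher and 14.9% lower. Their median was 0.67 beside 0.04 over all genes tested. RIGI, the sensor of short 5′-triphosphate RNA, rose by 3.56 ± 0.24 (edgeR, adjusted p = 3.5e-11), and IFIH1, the sensor of long double-stranded RNA, by 2.83 ± 0.22 (adjusted p = 2.39e-10). EIF2AK2, the kinase that stops translation on double-stranded RNA, rose by 1.37 ± 0.13 (adjusted p = 8.71e-09), and DHX58, a regulator of the other sensors, by 2.28 ± 0.85 (adjusted p = 0.0397). At 2 days 3 of the 13 rose and 2 fell, with a median of 0.17, where 9.12% of all genes were called higher and 9.94% lower. RIGI had risen by 1.71 ± 0.24 then (edgeR, adjusted p = 1.09e-05), and EIF2AK2 stood at 0.17 ± 0.13 (adjusted p = 0.411). Whether the sensors differ in timing was not tested. Of 15 interferon receptors, kinases and transcription factors, 10 rose and none fell at 2 days, where 9.12% of all genes were called higher and 9.94% lower, with a median of 0.55 beside 0 over all genes. At 4 days 10 rose and 1 fell, with a median of 0.59. IRF7, which drives interferon genes, rose by 3.31 ± 0.33 at 4 days (adjusted p = 1.43e-08), IRF9 by 2.11 ± 0.24 (adjusted p = 1.44e-07) and STAT2 by 1.52 ± 0.12 (adjusted p = 5.25e-10). STAT2 had risen by 1.06 ± 0.12 at 2 days (adjusted p = 8.91e-07). Of 9 interferon ligands 3 had enough counts to be tested, and IFNE rose at 4 days, from 0.185 to 1.64 CPM (3.13 ± 0.96, adjusted p = 0.0132). Among 18 other interferon-induced effectors, 6 rose at 2 days and 18 at 4 days, with a median of 3.76. XAF1, SAMD9L and IFI44L were at 0 in all 3 controls and at 3.97, 3.58 and 2.15 CPM after 4 days, and IFI6, a mitochondrial effector, went from 3.67 to 219.8 CPM.

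The expression pattern of each member was compared with all genes over the 32 Ku80-AID libraries by Pearson's r of log2 CPM. These libraries share clones and controls, so r is a description. The members correlated with each other at 0.858 (OAS2 with OASL) to 0.927 (OAS1 with OASL). OAS1 was most like UBE2L6, which attaches ISG15 to proteins (0.959), and then IFIT1, IFI6, IFI44 and IFIT3. OAS2 was most like USP18, which removes ISG15 (0.928), and then OAS3, HERC6, ADAR and IFI44L. OAS3 was most like PLSCR1, a phospholipid scramblase (0.967), and then USP18, IFI44L, XAF1 and LAMP3. OASL was most like IFI6 (0.967), and SP100, SAMD9 and ZNFX1 were also among its 5 nearest.

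Values are also given for 3 genes next to the family. RPH3A, on the OAS1 side of the cluster, was at or below 0.195 CPM on average at all IAA times and in no IAA comparison past the test. DTX1, on the OAS2 side, held 3 counts in 1 of 3 libraries at 4 days and none at 2 and 6 days. P2RX7, an ATP-gated channel next to OASL, fell by 2.61 at 4 days (SE 0.69, edgeR, adjusted p = 0.00444), from 1.91 to 0.288 CPM.

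The 4-day response of the family was also present in cells held with the CDK4/6 inhibitor. On CDKi and IAA for 4 days all 4 members rose against CDKi alone, with 6.13% of genes called higher. OAS1 stood at 1.41, 0.895 and 2.18 CPM on CDKi and at 69.1, 46.4 and 47.0 CPM with IAA in clones 1, 7 and 9 (5.18 ± 0.67, edgeR, adjusted p = 6.96e-06). OAS2 stood at 0.0587, 0.141 and 0.218 CPM and at 5.26, 4.92 and 4.85 CPM (5.08 ± 0.76, adjusted p = 6.39e-05). OAS3 stood at 92.7, 93.4 and 94.3 CPM and at 436, 542 and 531 CPM (2.43 ± 0.13, adjusted p = 6.94e-13). All 3 enzymes were thus higher in each clone with IAA. OASL stood at 5.92, 4.0 and 7.69 CPM and at 46.3, 54.1 and 43.2 CPM (3.03 ± 0.31, adjusted p = 2.08e-07). No member's groups overlapped, but the share of all tested genes without overlap was not counted. The SD over clones was 0.222 CPM for OAS2, 12.9 CPM for OAS1 and 5.61 CPM for OASL here, beside 1.17, 18.1 and 16.5 CPM with IAA alone. For OAS3 it was 58.1 CPM beside 53.8 CPM.

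The difference between the responses with and without CDKi at 4 days was tested as such, and no member passed the adjusted threshold, against 4.69% of all genes. OASL and OAS3 had unadjusted p-values of 0.00707 and 0.0145. The OASL response was -1.35 ± 0.46 different with CDKi (edgeR, adjusted p = 0.0921) and the OAS3 response 0.46 ± 0.17 (adjusted p = 0.141). The values for OAS1 and OAS2 were -2.16 ± 1.39 and 1.38 ± 1.20. DESeq2 called OASL (-1.36, adjusted p = 0.0428). OASL was also higher on CDKi alone at 4 days than on DMSO at 2 days, by 1.60 ± 0.36 (edgeR, adjusted p = 0.00652), from 1.93 ± 0.41 to 5.87 ± 1.84 CPM (SD, n = 3), with 3.85% of genes called higher. CDKi and the 2 more days in culture cannot be told apart here, and the difference of the responses likewise sets a 4-day control against a 2-day one. OAS1 and OAS3 were also above their controls in all 3 clones on CDKi alone, at 3.58 ± 1.17 (adjusted p = 0.0599) and 0.34 ± 0.12 (adjusted p = 0.0938), and both passed with the clone as a replicate block (3.57, adjusted p = 0.00964, and 0.36, adjusted p = 0.0325).

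At 2 days on CDKi and IAA, OASL was again the only member past the test, with 0.297% of genes called higher. It stood at 3.82 and 4.6 CPM on CDKi and at 18.5 and 13 CPM with IAA in clones 1 and 9 (1.89 ± 0.39, edgeR, adjusted p = 0.026). The call was lost without any 1 of the 4 libraries, which leaves 1 side with 1 library, with adjusted p-values of 0.0619 to 0.41. With the clone as a replicate block OASL (1.86, adjusted p = 3.37e-07), OAS1 (2.25, adjusted p = 0.000224) and OAS3 (0.30, adjusted p = 0.00337) passed. CDKi alone at 2 days against DMSO at 2 days gave a lower OAS3 (-0.44 ± 0.14, adjusted p = 0.0166) and a higher OASL (1.13 ± 0.41, adjusted p = 0.0327), with 13.6% and 20.8% of genes called lower and higher. The 2 sides of this comparison lie on different sides of the DTX1 split. The 1-day DMSO libraries lie on the same side as these CDKi libraries. Against them OAS3 was 0.01 higher (adjusted p = 1) and OASL 0.87 higher (adjusted p = 0.33), so neither was called. The OAS3 call was lost without clone 1 on CDKi (adjusted p = 0.105). The OASL call was also lost without either CDKi library or without clone 7 or clone 9 of the DMSO libraries, with adjusted p-values of 0.0858 to 0.238.

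In Ku80-AID clones without MAVS, IAA for 4 days moved no member past the test. The count was 0 of 4 by edgeR, with 1 member, OAS3, at an unadjusted p under 0.05, and 1 by DESeq2, again OAS3. The background was 4.73% of genes called higher and 3.15% called lower. OAS1 stood at 1.37, 0.455 and 0.909 CPM on DMSO and at 1.45, 1.23 and 1.15 CPM on IAA in clones 1, 13 and 15 (0.47 ± 0.78, edgeR, adjusted p = 0.848). OAS2 stood at 0.195, 0.0758 and 0.0699 CPM and at 0.116, 0.0684 and 0.182 CPM, or 5 and 6 counts in all. Both genes thus overlapped between DMSO and IAA. OASL stood at 4.95, 2.27 and 4.19 CPM and at 4.77, 4.31 and 4.0 CPM (0.19 ± 0.33, adjusted p = 0.862). OAS3 was lower in all 3 clones, at 59.7, 52.0 and 60.8 CPM on IAA against 74.8, 67.1 and 76.0 CPM on DMSO (-0.34 ± 0.12, edgeR, adjusted p = 0.105, and DESeq2, -0.36, adjusted p = 0.0434).

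The difference of the 4-day responses without and with MAVS was tested as a contrast of 4 groups, and 3 members were called lower, against 2.39% of all genes. It was -6.87 ± 1.35 for OAS1 (edgeR, adjusted p = 0.00244), -2.31 ± 0.18 for OAS3 (adjusted p = 3.5e-09) and -4.20 ± 0.49 for OASL (adjusted p = 4.05e-06). For OAS2 it was -3.61 ± 1.30 (adjusted p = 0.117), and without the clone 7 DMSO library, which held all OAS2 counts of the control, it was -7.61 (adjusted p = 0.0183), a fitted value against 0 counts and no bound. Of the 18 other interferon-induced effectors, 15 were also called lower, with a median of -3.48, and so were IFIH1 (-2.68 ± 0.30, adjusted p = 2.76e-06) and RIGI (-2.69 ± 0.33, adjusted p = 1.21e-05). The controls of this contrast differ in time, 2 days with MAVS and 4 days without, and in DTX1, so the loss of MAVS cannot be told apart from these. On DMSO, OASL was higher in the MAVS-/- clones (0.99 ± 0.38, edgeR, adjusted p = 0.0347), with 24.5% of genes called higher and overlapping libraries. That call was lost without clone 7 or clone 9 of the MAVS-intact controls, or without clone 1 or clone 15 of the MAVS-/- controls, with adjusted p-values of 0.0878 to 0.159, and against the 1-day DMSO libraries (0.73, adjusted p = 0.183). OAS1 was at 0.91 ± 0.456 CPM there against 0.129 ± 0.146 CPM (2.90 ± 1.28, adjusted p = 0.0659), and OAS3 at 72.6 ± 4.79 against 73.7 ± 8.21 CPM (SD, n = 3).

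**Figure D2:**
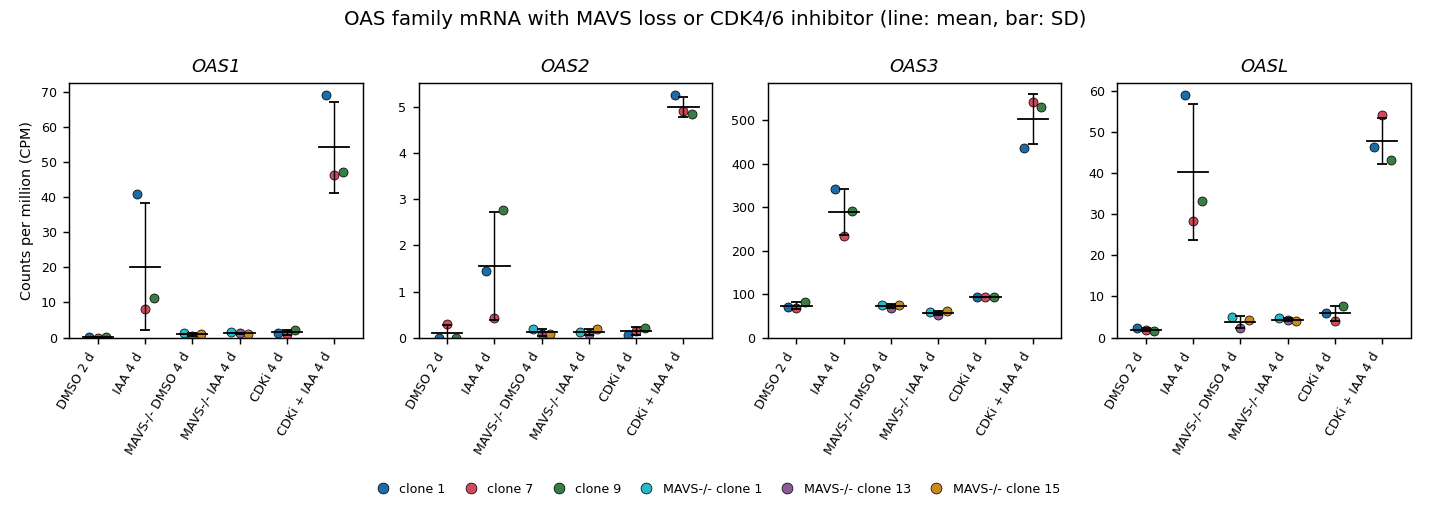
Level of each OAS family member in counts-per-million (vertical axes, linear from 0) at 4 days (2 days for DMSO of the MAVS-intact clones) without MAVS or with the CDK4/6 inhibitor. Points are single libraries, lines are means and bars are SD, cut at 0; with IAA, OASL stands at 28.4 to 59.0 CPM in MAVS-intact clones, at 4.0 to 4.77 CPM without MAVS and at 43.2 to 54.1 CPM with CDKi.

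Genetic removal of Ku80 moved the family in the same direction. In Cre cells 4OHT raised all 4 members at 4 days, with 26.4% of 16726 tested genes called higher. OAS1 stood at 15 and 14 CPM on ethanol and at 68.5 and 67.1 CPM on 4OHT (2.23 ± 0.07, edgeR, adjusted p = 5.51e-11). OAS2 stood at 1.08 and 0.969 CPM and at 3.33 and 3.86 CPM (1.80 ± 0.32, adjusted p = 0.000301). OAS3 stood at 239.8 and 233 CPM and at 374 and 374 CPM (0.66 ± 0.05, adjusted p = 7.11e-08), the smallest change of the 4. OASL stood at 10.6 and 9.32 CPM and at 53.9 and 56.4 CPM (2.47 ± 0.09, adjusted p = 2.07e-10). No member's groups overlapped, but here too the share of all tested genes without overlap was not counted.

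Without Cre, 4OHT raised OAS3 alone, from 82.9 and 79.4 to 97.8 and 95.2 CPM (0.25 ± 0.05, edgeR, adjusted p = 0.00888), with 7.26% of genes called higher. This call was lost without 4OHT replicate 1 (adjusted p = 0.104) and in a fit of the 4 no-Cre libraries (adjusted p = 0.0519). OAS1 stood at 1.94 and 1.85 CPM on ethanol and at 2.63 and 2.68 CPM on 4OHT (0.48 ± 0.19, adjusted p = 0.169), and OASL at 3.93 and 3.93 CPM and at 5.31 and 4.14 CPM (0.27 ± 0.16, adjusted p = 0.305). The response in Cre cells exceeded that in no-Cre cells for all 4 members, against 18.8% of genes. The difference was 1.75 ± 0.21 for OAS1 (edgeR, adjusted p = 2.21e-05), 2.38 ± 0.78 for OAS2 (adjusted p = 0.0264), 0.41 ± 0.07 for OAS3 (adjusted p = 0.000402) and 2.20 ± 0.20 for OASL (adjusted p = 1.47e-06). By DESeq2 the OAS2 difference was 2.42 and did not pass (adjusted p = 0.0865). OAS2 passed the filter on low counts only through the Cre groups, so the share of members called is a description here too. OAS2 held 7 and 5 counts in the no-Cre groups, and its difference did not pass without ethanol or 4OHT replicate 2 of the Cre cells, without ethanol replicate 1 of the no-Cre cells or without either of their 4OHT libraries, with adjusted p-values of 0.0504 to 0.297.

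The Cre cells differed from the no-Cre cells before 4OHT. On ethanol all 4 members were higher in Cre cells, with 12.4% of genes called higher. The size was 2.93 ± 0.13 for OAS1 (edgeR, adjusted p = 1e-08), 2.08 ± 0.48 for OAS2 (adjusted p = 0.00704), 1.54 ± 0.05 for OAS3 (adjusted p = 1.19e-09) and 1.34 ± 0.14 for OASL (adjusted p = 2.22e-05). DESeq2 and limma on log2(TPM + 1) each called 3 members, and by limma OAS2 was 0.46 higher (adjusted p = 0.118). OAS2 held 35 counts against 7 and passed the count filter only through the Cre groups. Whether these differences between untreated lines are larger than the 4OHT changes within Cre cells was not tested. XRCC5 was at 257 ± 1.49 and 244 ± 11.7 CPM (SD, n = 2) in the 2 lines on ethanol (0.08 ± 0.06, adjusted p = 0.411).

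**Figure D3:**
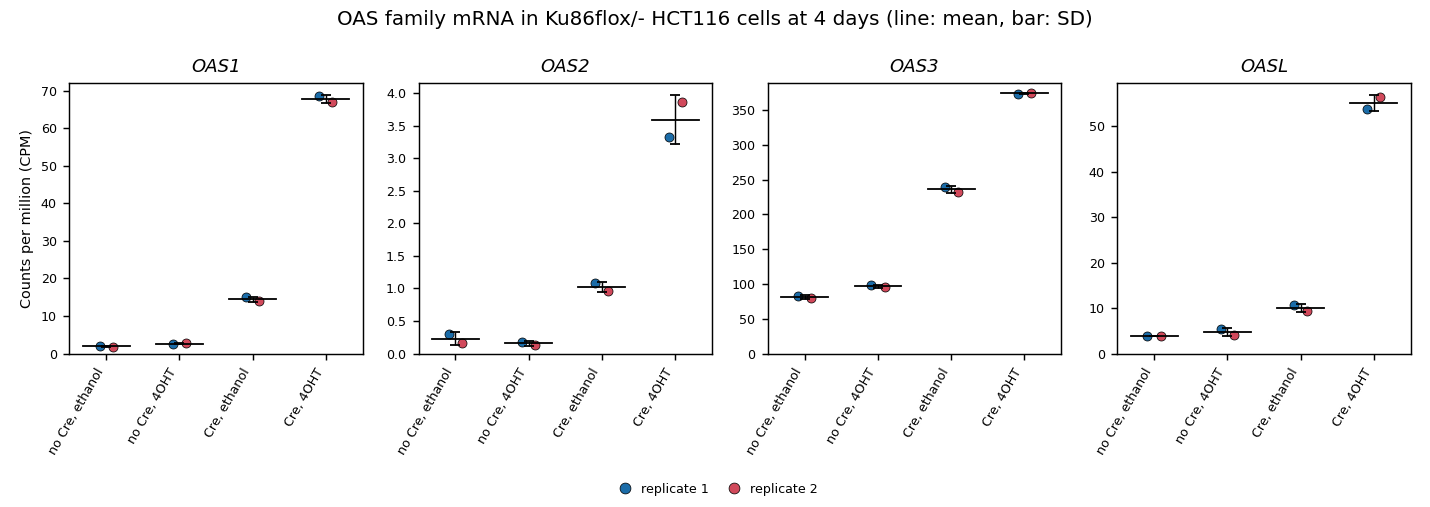
Level of each OAS family member in counts-per-million (vertical axes, linear from 0) in Ku86flox/- HCT116 cells without and with Cre after 4 days of ethanol or 4OHT (horizontal axis). Points are the 2 libraries of each group, lines are means and bars are SD; Cre cells on ethanol, with OAS3 at 233 and 239.8 CPM, already stand above both no-Cre groups.

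In HEK293 cells the loss of Ku70 moved no member past the test after 8 days in the fit that does not pair the clones. The count was 0 of 4 by edgeR, with none at an unadjusted p under 0.05 and none by DESeq2, against 11.1% of 15549 tested genes called higher and 10.9% called lower. OAS1 stood at 27.5, 21.2 and 20.5 CPM on doxycycline and at 18.8, 28.7 and 21.2 CPM without it in clones Sa11, SB and TI (-0.01 ± 0.19, adjusted p = 0.979). OAS2 stood at 3.94, 2.79 and 2.5 CPM and at 3.37, 3.51 and 3.28 CPM (0.14 ± 0.29, adjusted p = 0.775). For both, the groups overlapped and the clones moved in different directions. OASL stood at 1.44, 1.95 and 1.67 CPM and at 1.62, 2.66 and 2.28 CPM, higher in 3 of 3 clones (0.37 ± 0.33, adjusted p = 0.47). OAS3 stood at 13.3, 26.7 and 15.4 CPM and at 7.68, 22.9 and 10.3 CPM, lower in 3 of 3 clones (-0.44 ± 0.40, adjusted p = 0.471). With the clone as a replicate block OAS3 was called lower (-0.52, adjusted p = 0.0313), and so it was without clone SB after withdrawal (-1.01, adjusted p = 0.0291). Deviations of same-clone libraries from their group means correlated at 0.245 to 0.467 over the tested genes in this comparison. RIGI rose in these cells by 0.99 ± 0.19 (adjusted p = 0.00786), from 10.8 to 21.4 CPM.

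**Figure D4:**
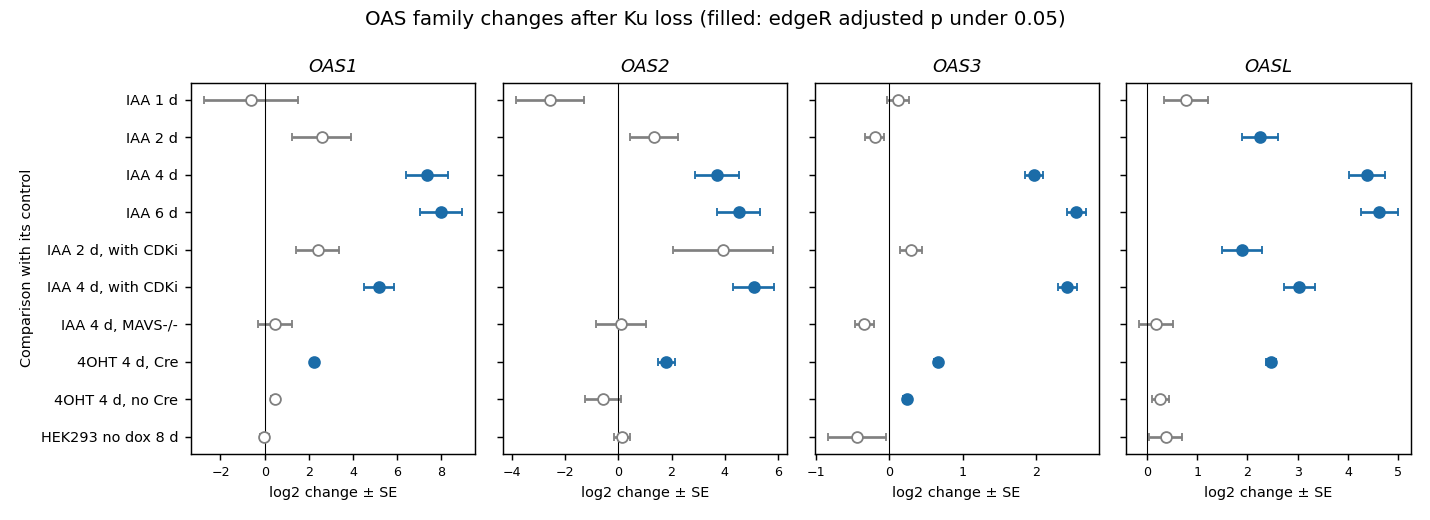
Log2 change ± SE (horizontal axes, a different range for each gene) of each OAS family member in 10 comparisons of Ku loss or 4OHT with a control (vertical axis), from edgeR. The control for 4 and 6 days of IAA in MAVS-intact clones without CDKi is 2-day DMSO. Filled points passed an adjusted p of 0.05; at 2 days of IAA only OASL is filled, without MAVS and in HEK293 no point is filled.

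Levels were compared between the genes in TPM, which corrects for transcript length. OAS3 had the largest mean share of the family's mRNA in every HCT116 group, from 93.2 ± 2.30% of the summed TPM (SD, n = 3) in 2-day DMSO to 48.3 ± 1.17% (SD, n = 2) in Cre cells on 4OHT. On CDKi and IAA at 2 days OASL was the higher in clone 1, at 13.96 TPM beside 12.96 TPM of OAS3. OASL was next in the no-Cre groups and in the Ku80-AID groups other than CDKi and IAA at 4 days, with 6.01 ± 2.23% in 2-day DMSO and 26.5 ± 8.70% after 2 days of IAA. On CDKi and IAA at 4 days OASL and OAS1 had like shares, 19 ± 1.29% and 18.9 ± 5.21% (SD, n = 3), and OAS1 was the higher in clone 1. In Cre cells OAS1 was next, at 15 ± 0.68% on ethanol beside 10.3 ± 1.19% of OASL, and at 26.2 ± 1.03% on 4OHT beside 24.7 ± 0.19%. The share of OAS1 went from 0.601 ± 0.521% in 2-day DMSO to 9.91 ± 7.68% after 4 and 12.9 ± 5.66% after 6 days of IAA. OAS2 had at most 0.985% on average in any HCT116 group. In HEK293 cells, whose table was made separately from another kind of library, OAS1 was the leading member, at 8.35 ± 1.27 TPM on doxycycline beside 4.52 ± 1.77 TPM of OAS3.

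The summed TPM of the 4 members ordered the HCT116 groups. This order joins the Ku86flox/- set and Ku80-AID libraries on both sides of the DTX1 split. Between these, treatment cannot be told apart from the set of cells or from whatever that split marks. The sum was lowest in the 1-day DMSO and 2-day CDKi libraries, at 12.4 ± 0.50 and 12.6 ± 1.25 TPM (SD, n = 2), which overlapped. Clear of both, the 1-day IAA (17.2), MAVS-/- IAA (18.9) and DMSO (20.3), no-Cre ethanol (20.7), 2-day DMSO (22.4), 2-day CDKi with IAA (26.1), 4-day CDKi (27.0), no-Cre 4OHT (27.6) and 2-day IAA (27.8 TPM) groups followed. Each of these overlapped its neighbours in the order. Cre cells on ethanol came next, clear of all groups below, at 69.4 ± 0.40 TPM. The 4-day IAA group, at 118.8 ± 42.2 TPM, Cre cells on 4OHT, at 158 ± 1.98 TPM, and the 6-day IAA group, at 169.5 ± 30.3 TPM, overlapped, with single libraries at 84.2 to 166 TPM at 4 days and at 135 to 190 TPM at 6 days. The highest group was CDKi with IAA at 4 days, at 213.8 ± 14.6 TPM, clear of all others.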

How the data were processed

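RNA was measured in 40 HCT116 and 6 HEK293 libraries. The authors deposited estimated counts and TPM per gene; per the submitters' processing notes Salmon 1.10.2, kallisto 0.50.0, DESeq2 and GRCh38 were used. Groups follow the labels. Estimated counts were rounded and fitted as the Ku80-AID (18877 genes), Ku86flox/- (16726) and HEK293 (15549) sets with edgeR 4.0.16 (R 4.3.3): filterByExpr, TMM, quasi-likelihood test, Benjamini-Hochberg adjustment over all genes tested. CPM use TMM library sizes; intervals cover counting error only. The 19 comparisons were repeated with limma 3.58.1 on log2(TPM + 1), DESeq2 1.42.0, RLE, every gene kept, the compared groups alone, a replicate block and each library left out. The tests were run on simulated counts drawn with the spread that edgeR fitted, with changes set only in genes above 1 CPM on average. This does not check them at the few control counts of OAS1 and OAS2. Clones named in the labels pair the Ku80-AID and HEK293 libraries; same-clone deviations correlated at -0.113 to 0.467. The members and lists were chosen with earlier results of these data known. Named genes are the members, the 2-5A list, up to 4 genes per other list with the largest change at 4 days of IAA, the 5 genes most like each member, neighbouring genes and the targeted genes. Some genes that this rule names are not reported here, although counts over a list include all its genes.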

Additional observations from a re-analysis of the deposited data

Results flagged for a closer look

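The 4-day response to IAA differed between MAVS-/- and MAVS-intact clones for OAS1 (-6.87 on the log2 scale), OAS3 (-2.31) and OASL (-4.20), by a test of the difference itself in edgeR. Its DMSO controls were at 4 days without MAVS and at 2 days with it, and also differed in DTX1. The loss of MAVS cannot be told apart from these. The 4OHT response differed between Cre and no-Cre cells, by the same kind of test, for OAS1 (1.75), OAS2 (2.38), OAS3 (0.41) and OASL (2.20). The OAS2 difference did not pass with DESeq2 (adjusted p = 0.0865) or with limma on log2(TPM + 1) (adjusted p = 0.0641). With limma the OAS3 difference did not pass either (adjusted p = 0.276). No group had the 4 libraries that a check for single outlying libraries needs.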

How the results depend on the processing

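Of 952 values of single genes under other settings, 853 kept direction and side of the threshold, 40 lost and 30 gained a call, and 29 changed sign. Of 247 counts of members called, 201 stayed within 1.5 times. The cause of the changes was not tested. All 4 members stayed called at 6 days of IAA, on CDKi and IAA at 4 days and in Cre 4OHT under each setting that was run, and at 4 days of IAA except that OAS2 fell under the count filter in the fits of those groups alone, with and without the block. OAS2 was likewise not tested in these fits from 2 to 4 days.

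Without a count filter 2 members were called at 2 days of IAA (OASL and OAS1), on CDKi and IAA at 2 days, on CDKi at 4 days, in the CDKi change of the response and in MAVS-/- against intact DMSO. DESeq2 called 3 on CDKi at 4 days, 1 in the CDKi change, 1 in MAVS-/- IAA and 2 in MAVS-/- against intact DMSO. On log2(TPM + 1), limma called 0 on CDKi and IAA at 2 days, 1 on CDKi at 2 days, 1 in the CDKi change, 0 in MAVS-/- against intact DMSO, 0 in no-Cre 4OHT and 2 in the Cre change. A fit of only the compared groups called 0 from 4 to 6 days, 3 on CDKi at 4 days and 0 in no-Cre 4OHT.

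With the replicate block 1 member was called at 1 day, 0 from 4 to 6 days, 3 on CDKi and IAA at 2 days, 3 on CDKi at 4 days and 1 in HEK293. The block changed no other call of a member that it tested. Numbers of the Ku86flox/- libraries mark no shared source, and their deviations correlated at 0.012, 0.0632 and -0.0174.

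Leaving out 1 library moved the count to 0 on CDKi and IAA at 2 days, and gave 0 to 2 on CDKi at 2 days, 1 to 2 at 2 days of IAA and from 4 to 6 days, and 0 to 1 in the CDKi change, MAVS-/- against intact DMSO, no-Cre 4OHT and HEK293. It gave 3 to 4 from 2 to 4 days and in the MAVS-/- and Cre changes.

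A further 2 settings were chosen after seeing the data. With 1-day DMSO as the reference 0 members were called on CDKi at 2 days and 3 at 4 days. The 4-day CDKi libraries and this reference lie on different sides of the DTX1 split. Without the MAVS-intact clone 1 there were 0 on CDKi and IAA and 0 on CDKi at 2 days, 2 on CDKi at 4 days and 2 in MAVS-/- against intact DMSO.

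The sign turned with 1-day DMSO for OAS3 at 2 days of IAA (0.25) and on CDKi at 2 days (0.0108), OAS2 on CDKi at 4 days (-0.56) and, in MAVS-/- against intact DMSO, OAS2 (-0.82) and OAS3 (0.43). Without clone 1 it turned for OAS2 in MAVS-/- against intact DMSO (-0.48). For the latter OAS3 was 0.0076 with RLE and 0.0080 with DESeq2. With limma it turned for OAS1 in the CDKi change (1.13) and OAS2 in MAVS-/- IAA (-0.0086) and no-Cre 4OHT (0.0086).

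With 1 library left out, the value ran from -4.25 to 0.26 for OAS1 at 1 day, -0.18 to 4.32 for OAS2 on CDKi at 4 days and -2.61 to 2.07 for OAS2 in the CDKi change. In MAVS-/- against intact DMSO it ran from -0.56 to 4.05 for OAS2 and -0.0804 to 0.0367 for OAS3, and in MAVS-/- IAA from -0.26 to 0.71 for OAS2 and -0.0687 to 0.42 for OASL. It ran from -0.93 to 0.0058 for OAS2 in no-Cre 4OHT, and from -0.17 to 0.13 for OAS1 in HEK293.

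Counts over all genes moved more: from 3597 to 1452 and 9357 at 2 days of IAA (without clone 1 and with 1-day DMSO), from 6198 to 3892 and 10270 at 4 days (compared groups alone and 1-day DMSO), from 35 to 3981 at 1 day, from 78 to 4596 on CDKi and IAA at 2 days and from 2355 to 46 from 4 to 6 days with the replicate block, and from 3426 to 1792 (limma) and 5404 (block) in HEK293. The share of called genes that were higher turned from 54.5% to 41.1% at 4 days of IAA with limma, from 47.8% to 68.3% at 2 days, from 57.9% to 15.6% from 2 to 4 days, from 54.6% to 80% on CDKi and IAA at 4 days, from 60.6% to 25.6% on CDKi at 2 days, from 50% to 14.5% on CDKi at 4 days, from 50.7% to 80.9% in the MAVS-/- change and from 45.6% to 25.6% in the Cre change. The median of all genes moved by over 0.1 with limma from 2 to 4 days (0.03 to -0.11), on CDKi at 2 days (0.05 to -0.23), in the Cre change (-0.03 to -0.13), the CDKi change (-0.05 to 0.08) and the MAVS-/- change (-0.05 to 0.08). OAS1 and OAS2 in HCT116 controls are limited by depth, with 4 counts each in 3 libraries.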
